A study of Mus musculus with 6 samples.

Results

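The 37 genes described here are those encoded by the mouse mitochondrial genome, taken as every gene symbol of the deposited expression table that begins with mt-. They are 13 protein genes, 2 rRNA genes and 22 tRNA genes among 46959 symbols. RNA was sequenced from adult mouse islet cells sorted by flow cytometry into 3 populations, with 2 libraries each. Transdifferentiated cells carried both mCherry and YFP, beta cells carried mCherry, and delta cells carried YFP. All cells came from triple transgenic mice that combine mIns1-H2b-mCherry, a nuclear reporter under an insulin promoter, with Sst-cre and a floxed YFP allele. Cre under the somatostatin promoter leaves a lasting YFP label in delta cells and their descendants, so the double-positive population is defined by 2 reporters and not by a treatment. Each pool held islets of 10 to 12 animals of 1 sex, and replicate 1 of each population is a male pool and replicate 2 a female pool.

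The mitochondrial genome encodes core subunits of complexes I, III, IV and V of the respiratory chain, while the other subunits of those complexes, all of complex II and the factors that copy and read mitochondrial DNA are encoded in the nucleus. Both strands are transcribed as long RNAs, and the tRNAs that lie between most of the genes are cut out, which releases the mRNAs and rRNAs. In beta cells, ATP from the respiratory chain couples glucose to insulin release. The kit used here usually selects polyadenylated RNA, and reads over a tRNA gene are therefore not a measure of mature, charged tRNA. How strand was treated in counting is not given in the sources, and without it reads from a gene and from its antisense strand cannot be told apart. In bulk samples, fewer cells of a type and less RNA per cell cannot be told apart either.

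Values are RPKM, the reads of a gene per kilobase of its length and per M reads of the library, which are per length, though sequence shared with nuclear transcripts also bears on the order of the genes, as given below for mt-Co1 and mt-Nd4. The denominators worked out from low values were 10.9 to 12.5 M reads in transdifferentiated, 20.5 to 21.6 M in beta and 15.7 to 17.0 M in delta libraries. The 6 beta markers summed to 85832 and 93722 RPKM in transdifferentiated, 309279 and 220791 RPKM in beta, and 1430.1 and 1754 RPKM in delta libraries. The 5 delta markers summed to 13507 and 13590.3 RPKM in transdifferentiated, 79.7 and 96.6 RPKM in beta, and 51785 and 60683 RPKM in delta libraries. The 5 alpha markers summed to 1629 and 2378 RPKM in transdifferentiated, 239.5 and 429 RPKM in beta, and 14602 and 15876 RPKM in delta libraries. The 2 PP markers summed to 11877 and 12041 RPKM in transdifferentiated, 802 and 558 RPKM in beta, and 36498 and 37076 RPKM in delta libraries. The 7 immune markers summed to 46.6 and 52.2 RPKM in transdifferentiated, 153 and 171 RPKM in beta, and 76.3 and 90.7 RPKM in delta libraries, with 3 of them at 0 in transdifferentiated replicate 1 and 2 at 0 in each delta library. Of the immune markers, C1qa was highest in delta libraries (59.3 and 76.9 RPKM) and the others were highest in beta libraries. The alpha, PP and immune sums therefore differ between the groups, and their part in the results below was not tested.

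Of the 13 protein genes, 7 were abundant in every library. mt-Cytb, the complex III subunit, had the highest mean level over the 6 libraries (2994 RPKM), followed by mt-Co1, the catalytic subunit of complex IV (2631 RPKM). The complex I subunits mt-Nd1, mt-Nd2, mt-Nd5, mt-Nd6 and mt-Nd4 followed at 1971, 1126, 1106, 1090.4 and 707 RPKM. mt-Nd2, mt-Nd5 and mt-Nd6 lay close together, and their ranges over the libraries overlapped. The other 6 protein genes carried almost no reads. mt-Co2, mt-Co3, mt-Atp6, mt-Atp8 and mt-Nd4l, which are subunits of complexes IV, V and I, were listed at 0 in all 6 libraries. mt-Nd3, a complex I subunit, had 1 and 2 reads in transdifferentiated, 1 and 0 in beta, and 0 and 0 in delta libraries.

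The 6 protein genes with almost no reads lie next to each other, inside a stretch of the mitochondrial genome that has annotated copies on chromosome 1. In GRCm38, annotated pseudogenes on the minus strand of chr1:24611535-24616197, a span of 4663 bases, run in the order of chrM:6381-11042, a span of 4662 bases. The 11 genes wholly inside that stretch, 6 for proteins and 5 for tRNAs, had 9 reads in all libraries together, out of 1377617 reads over mitochondrial genes. Of the 7 annotated copies, Gm28661 matched mt-Co2 at 681 of 681 bases, Gm28437 matched mt-Co3 at 783 of 783, and Gm10925 matched mt-Atp6 at 678 of 678. Among 50-base windows, 100% of those of mt-Co2, 99.9% of mt-Co3, 99.5% of mt-Atp6, 98.8% of mt-Nd4l and 98.0% of mt-Nd3 also occurred in a nuclear transcript of the annotation. The share was 62.2% for mt-Nd4, 51.1% for mt-Co1, 8.19% for mt-Nd2, 7.61% for mt-Nd5 and 0 for mt-Nd1, mt-Nd6 and mt-Cytb. mt-Atp8 and the 5 tRNA genes lie within the stretch but have no annotated copy, and their share of windows was 0. Sequence of chromosome 1 outside the annotated copies could not be compared. How the authors treated reads that fit several places is not stated in the sources, and the part of these copies in the values at 0 was not tested.

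The first 60 bases of mt-Nd4l and mt-Nd3 and 60 bases of mt-Co1 (bases 1054 to 1113 of the gene) are shown with their nuclear copies, since they show how alike the 2 places are. Capitals mark the bases that differ, with positions counted from 1 at the first base of the mitochondrial gene. The pair for mt-Nd4l (chrM:9877-9936, plus strand, and chr1:24612641-24612700, minus strand) has no difference, and the whole copy matched at 294 of 294 bases. The pair for mt-Nd3 (chrM:9459-9518 and chr1:24613060-24613119) differs at T3C, the only mismatch in 345 bases. The pair for mt-Co1 (chrM:6381-6440 and chr1:24616138-24616197) has 6 mismatches at the edge of the copy, T1056A, C1057T, A1059G, A1060G, C1062A and A1066T, and the remaining bases of the 492-base copy are identical.
mt-Nd4l: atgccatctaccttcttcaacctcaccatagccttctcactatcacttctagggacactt
Gm10222: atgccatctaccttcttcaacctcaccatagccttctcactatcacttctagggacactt
mt-Nd3: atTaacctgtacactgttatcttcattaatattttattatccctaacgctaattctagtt
Gm28438: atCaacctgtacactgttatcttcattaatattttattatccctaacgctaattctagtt
mt-Co1: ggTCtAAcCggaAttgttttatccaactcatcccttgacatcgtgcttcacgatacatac
Gm29216: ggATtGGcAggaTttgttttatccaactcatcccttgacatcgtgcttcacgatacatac

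The copies themselves carried few reads. Gm28438, the copy of mt-Nd3, had between 7 and 26 reads per library (1.66 to 3.49 RPKM), and the other 6 copies had 8 reads in all libraries together. With reads divided by the length of windows not shared with nuclear transcripts, a calculation chosen after seeing the data, the order of the abundant genes changed. mt-Co1 then had 5560.2 reads per kilobase per M on average, above mt-Cytb at 3128. mt-Nd4 moved to 1941, close to mt-Nd1 at 2078, and mt-Nd2, mt-Nd5 and mt-Nd6 were at 1288, 1230.2 and 1204. This division acts alike in every library, so it leaves the comparisons between populations as they are.

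**Figure D1:**
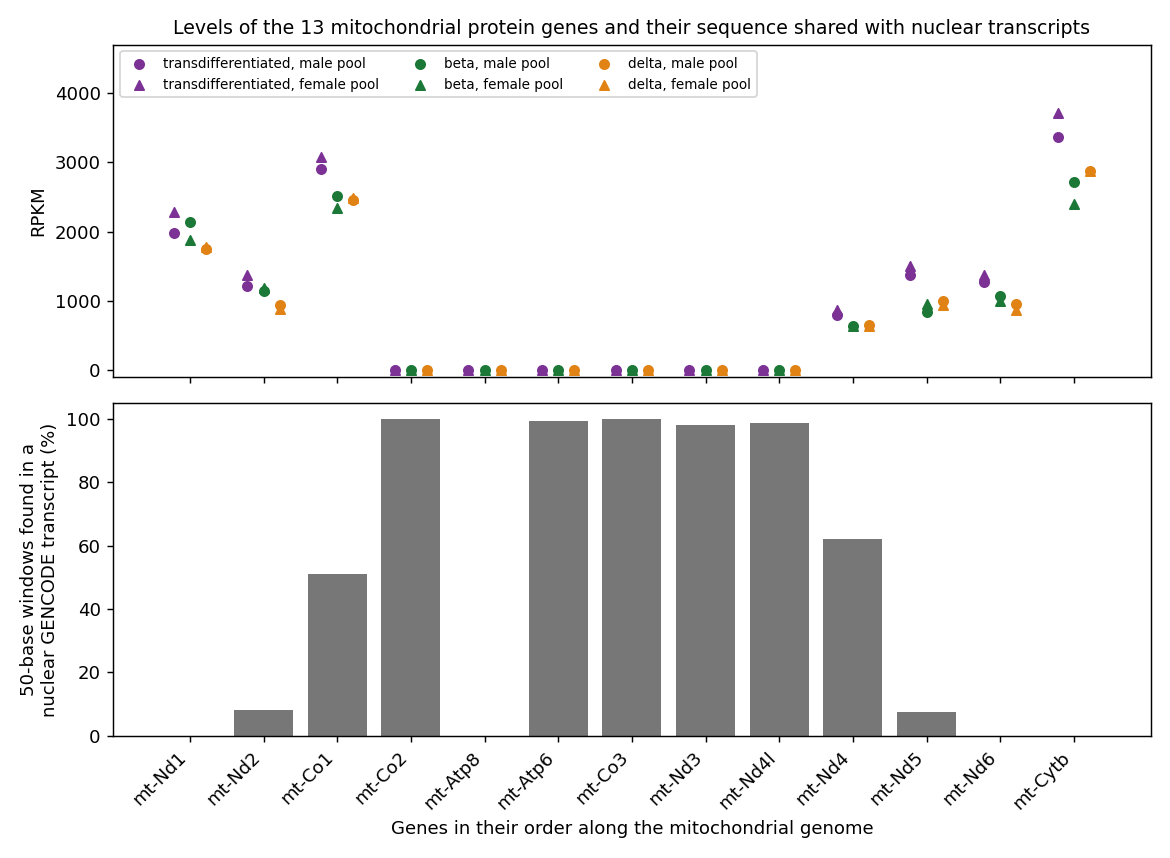
Upper panel, RPKM of the 13 mitochondrial protein genes in each library, by position along the mitochondrial genome. Lower panel, percent of each gene's 50-base windows that also occur in a nuclear transcript. The 6 genes from mt-Co2 to mt-Nd4l sit at or near 0 in every library, and all but mt-Atp8 share nearly all their windows.

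On the deposited scale, though not after median-of-ratios scaling, transdifferentiated cells had more of several abundant mitochondrial mRNAs than beta cells. mt-Nd5, a proton-pumping subunit of complex I, had 1377 and 1510.4 RPKM in transdifferentiated and 849 and 958 RPKM in beta libraries, which is 0.68 on the log2 scale (SE 0.12, adjusted p = 0.0043 by limma). mt-Cytb had 3374 and 3716 RPKM in transdifferentiated and 2718 and 2401 RPKM in beta libraries (0.47, SE 0.12, adjusted p = 0.018). Both transdifferentiated libraries lay above both beta libraries for these genes. mt-Nd4 had 801 and 866 RPKM in transdifferentiated and 647 and 639 RPKM in beta libraries (0.37, SE 0.10, adjusted p = 0.024). mt-Nd6, the only protein gene on the minus strand, had 1278 and 1376 RPKM in transdifferentiated and 1068 and 995 RPKM in beta libraries (0.36, SE 0.12, adjusted p = 0.038). mt-Nd6 overlaps mt-Nd5 at its end, and reads there cannot be assigned to one of them.

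The other 3 did not pass the threshold. mt-Co1 had 2906 and 3072 RPKM in transdifferentiated and 2520 and 2343 RPKM in beta libraries (0.30, SE 0.11, adjusted p = 0.062). mt-Nd2 had 1219.9 and 1373 RPKM in transdifferentiated and 1144 and 1187 RPKM in beta libraries (0.15, SE 0.11, adjusted p = 0.30). Neither gene's groups overlapped. mt-Nd1 had 1982 and 2286 RPKM in transdifferentiated and 2134 and 1887 RPKM in beta libraries, which overlapped (0.08, SE 0.13, adjusted p = 0.60).

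In all, 4 of the 7 tested protein genes rose and none fell, where 42.5% of the 13022 genes tested rose and 8.46% fell. Groups did not overlap for 6 of 7, all higher, against 58.5% of all genes higher and 17.5% lower. The median log2 fold change was 0.36 for the 7 genes and 0.32 for all genes. These calls move with the scale, and insulin took up unequal parts of the summed RPKM. Ins2 made up 17.9% and 18.6% of that sum in transdifferentiated libraries, against 41.3% and 34.8% in beta libraries. Its share of the reads, which set the scale, was not computed. With hormone and mt- genes left out of the total, 3 of the 7 were called, with a median of 0.31 and mt-Nd6 no longer among them (0.31, adjusted p = 0.059 by limma). Median-of-ratios scaling, which sets each library by its typical gene, moved the median of all genes to -0.08, left none of the 7 genes called and put their log2 fold changes between -0.39 and 0.20, while 25.1% of genes were called higher and 30.3% lower. Dissociation stress markers summed to 516 and 545 RPKM in transdifferentiated and 161 and 287 RPKM in beta libraries. Of these markers, Hspa1a and Hspa1b went the other way in each sex. The part of the stress markers in the result was not tested. Without transdifferentiated replicate 1 or 2 the count of called protein genes was 1, and leaving out beta replicate 2 or either delta library gave 2. mt-Nd5 was called in each of those fits with a library left out. With no filter on low values none of the 7 genes was called.

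Against delta cells, 3 of the 7 tested protein genes rose in transdifferentiated cells and none fell, where 5.53% of all genes rose and 7.2% fell. mt-Nd5 had 1377 and 1510.4 RPKM in transdifferentiated and 1001 and 940.2 RPKM in delta libraries (0.57, SE 0.12, adjusted p = 0.026 by limma). mt-Nd6 had 1278 and 1376 RPKM in transdifferentiated and 960 and 865 RPKM in delta libraries (0.54, SE 0.12, adjusted p = 0.029). mt-Nd2 had 1219.9 and 1373 RPKM in transdifferentiated and 942 and 893 RPKM in delta libraries (0.50, SE 0.11, adjusted p = 0.036). In each of these genes both transdifferentiated libraries were above both delta libraries.

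The remaining 4 genes had log2 fold changes from 0.27 to 0.37 and did not pass. Their delta levels were 1749.7 and 1787 RPKM for mt-Nd1, 2462 and 2481 RPKM for mt-Co1, 650.4 and 639 RPKM for mt-Nd4, and 2877 and 2877 RPKM for mt-Cytb. All 7 genes had groups that did not overlap and were higher in transdifferentiated cells, against 27.6% of all genes higher and 35.8% lower. The median was 0.37 for the 7 genes and -0.03 for all genes. Median-of-ratios scaling changed these fold changes little, with a median of 0.37, but only mt-Nd5 was then called (adjusted p = 0.042 by limma), where 5.68% of genes were called higher and 6.67% lower. No protein gene was called with no filter on low values, without transdifferentiated replicate 1 or 2 or without delta replicate 1 or 2. Stress markers summed to 516 and 545 RPKM in transdifferentiated and 1063 and 751 RPKM in delta libraries, and their part was not tested.

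**Figure D2:**
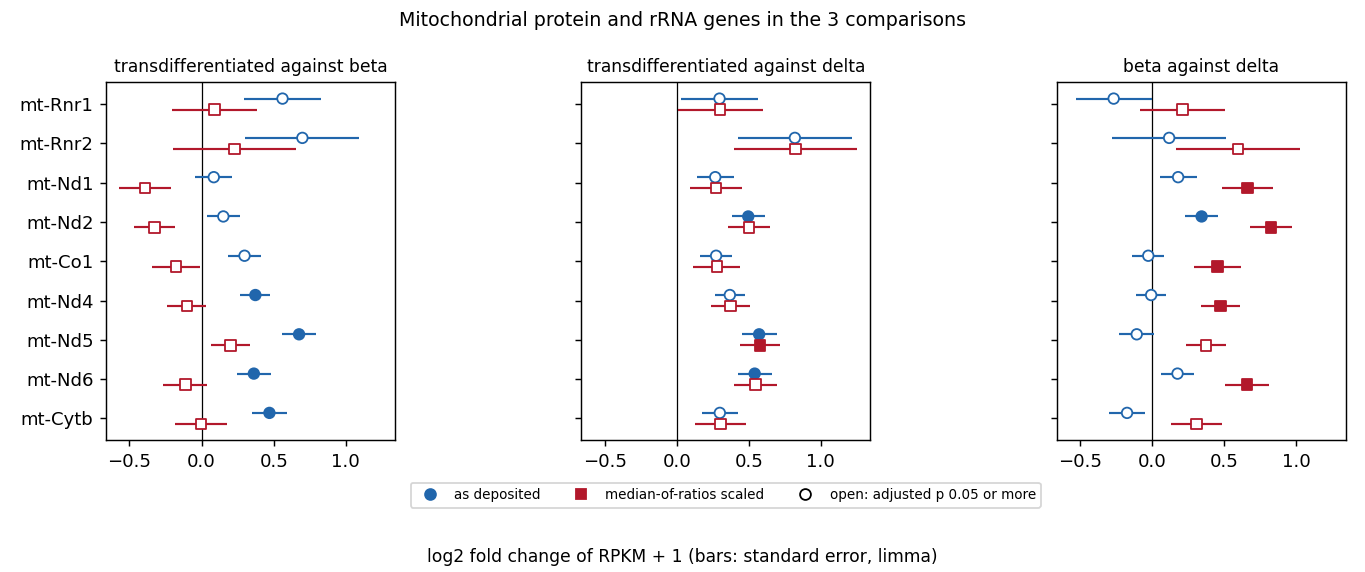
Log2 fold change of RPKM + 1, with its standard error, for the 9 tested mitochondrial protein and rRNA genes in the 3 comparisons, as deposited and after median-of-ratios scaling. Filled symbols have an adjusted p under 0.05. Scaling moves the protein genes down in transdifferentiated against beta, up in beta against delta, and hardly at all in transdifferentiated against delta.

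Beta and delta cells differed little in mitochondrial mRNAs on the deposited scale. Of the 7 genes, mt-Nd2 rose in beta cells, with 1144 and 1187 RPKM in beta and 942 and 893 RPKM in delta libraries (log2 fold change 0.35, SE 0.11, adjusted p = 0.038 by limma), where 11.7% of genes rose and 46.3% fell. mt-Cytb lay the other way, with 2718 and 2401 RPKM in beta and 2877 and 2877 RPKM in delta libraries (-0.17, SE 0.12, adjusted p = 0.27). mt-Nd1, mt-Nd2 and mt-Nd6 were higher without overlap (20.1% of all genes), mt-Cytb was lower without overlap (60.9%), and the other 3 overlapped. The median was -0.0045 for the 7 genes and -0.36 for all genes. After median-of-ratios scaling, which moved the median of all genes to 0.04, 5 of the 7 rose and none fell, where 30.6% of genes rose and 27.7% fell. These were mt-Nd1 (0.66, adjusted p = 0.019 by limma), mt-Nd2 (0.83, adjusted p = 0.0033), mt-Co1 (0.46, adjusted p = 0.0497), mt-Nd4 (0.48, adjusted p = 0.022) and mt-Nd6 (0.66, adjusted p = 0.010). The call of mt-Nd2 on the deposited scale was lost without any single library, with log2 fold changes of 0.31 to 0.38.

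Measures within a library complement these levels. Reads over mitochondrial genes made up 1.62% and 1.77% of the denominator in transdifferentiated, 1.36% and 1.27% in beta, and 1.33% and 1.30% in delta libraries. The transdifferentiated libraries were highest, and beta and delta libraries overlapped. That share still depends on the other RNA of a library, but ratios between mitochondrial genes do not. There were 695 and 661 RPKM of mt-Nd5 per 1000 RPKM of mt-Nd1 in transdifferentiated, 398 and 508 in beta, and 572 and 526 in delta libraries. The 3 populations did not overlap in this ratio, and transdifferentiated cells stood above beta cells by 1.497 times and above delta cells by 1.23 times. Among the tested protein genes, mt-Nd5 had the largest and mt-Nd1 the smallest log2 fold change of transdifferentiated cells against either population. Their ratio therefore adds no separate support to the mt-Nd5 calls. mt-Nd1 made up 15.3% and 16.1% of the summed RPKM of the protein genes in transdifferentiated, 19.3% and 18.1% in beta, and 16.4% and 17.0% in delta libraries. With 2 libraries against 2, the exact two-sided permutation test of a ratio cannot go below p = 0.333, the value found for each comparison of the mt-Nd5 ratio.

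**Figure D3:**
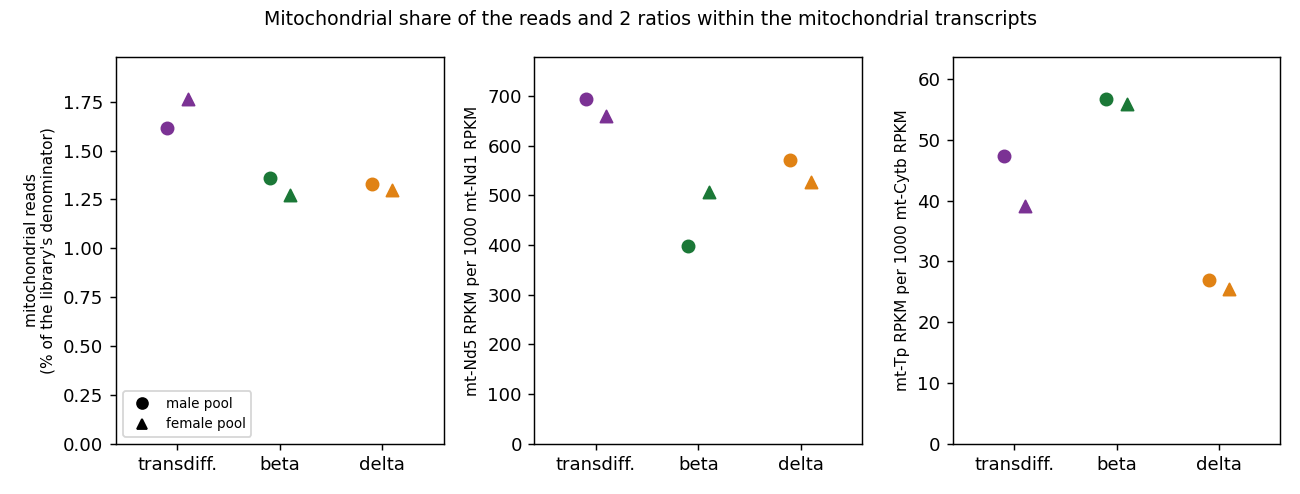
Mitochondrial reads as a percent of the denominator, mt-Nd5 per 1000 RPKM of mt-Nd1, and mt-Tp per 1000 RPKM of mt-Cytb in each library. Transdifferentiated libraries are highest in the first 2 panels, and in the third they lie between beta and delta libraries.

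The rRNA genes had far lower RPKM than the abundant mRNAs and varied more within the beta and delta populations. Since the kit usually selects polyadenylated RNA, these values are not a measure of how much rRNA the cells held. mt-Rnr1, the rRNA of the small mitochondrial ribosome subunit, had 126 and 125 RPKM in transdifferentiated, 111 and 64.3 RPKM in beta, and 119 and 87.2 RPKM in delta libraries. mt-Rnr2, that of the large subunit, had 143 and 153 RPKM in transdifferentiated, 139 and 59.4 RPKM in beta, and 107 and 65.2 RPKM in delta libraries. The female beta and delta libraries were the low ones, while the transdifferentiated pair lay close together. Both genes were higher without overlap in transdifferentiated than in beta cells, as were 58.5% of all genes, but neither passed the threshold (0.56, SE 0.26, adjusted p = 0.12 and 0.70, SE 0.40, adjusted p = 0.18 by limma). With the pool as a block mt-Rnr1 passed (adjusted p = 0.036). Without beta replicate 1 both passed, at 0.95 (adjusted p = 0.015) and 1.30 (adjusted p = 0.020). Against delta cells the log2 fold changes were 0.30 and 0.82 (adjusted p = 0.54 and 0.25). Between beta and delta cells they were -0.26 and 0.12 (adjusted p = 0.42 and 0.81), and without beta replicate 1 mt-Rnr1 was called lower in beta cells (-0.66, adjusted p = 0.036).

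Reads over tRNA genes were few and uneven, and made up 0.106% to 0.251% of mitochondrial reads. Only 5 of the 22 tRNA genes had 10 reads or more in every library, and they held 93.5% to 96.2% of the tRNA reads. They are mt-Tp (proline), mt-Tl1 (a leucine tRNA), mt-Tc (cysteine), mt-Ta (alanine) and mt-Te (glutamate). Of these, 4 lie on the minus strand, which holds 8 of the 22 tRNA genes, and mt-Tl1 lies on the plus strand between mt-Rnr2 and mt-Nd1. A further 6 tested genes had at most 13 reads in any library, 4 untested genes had at most 3, and 7 had none in any library. The genes of the 5 tRNAs are shown because the tRNA differences rest on them, each read on its own strand of GRCm38. Capitals mark the anticodon, where its 3 bases occur a single time around the middle of the gene. They are at chrM:15356-15422 (mt-Tp, minus), chrM:2676-2750 (mt-Tl1, plus), chrM:5192-5257 (mt-Tc, minus), chrM:5018-5086 (mt-Ta, minus) and chrM:14071-14139 (mt-Te, minus).
mt-Tp: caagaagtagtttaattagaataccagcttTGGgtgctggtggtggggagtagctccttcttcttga
mt-Tl1: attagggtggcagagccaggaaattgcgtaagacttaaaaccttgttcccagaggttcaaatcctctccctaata
mt-Tc: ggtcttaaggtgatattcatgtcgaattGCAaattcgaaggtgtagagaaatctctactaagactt
mt-Ta: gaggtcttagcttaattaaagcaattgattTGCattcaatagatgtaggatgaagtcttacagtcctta
mt-Te: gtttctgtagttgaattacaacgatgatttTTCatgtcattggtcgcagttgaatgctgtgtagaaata

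Reads over mt-Tp, the last tRNA gene before the control region, separated both insulin-reporter populations from delta cells. mt-Tp had 159.6 and 145 RPKM in transdifferentiated, 154 and 134 RPKM in beta, and 77.4 and 73.3 RPKM in delta libraries (134, 106, 223, 184, 88 and 77 reads in that order). It was higher in transdifferentiated than in delta cells (log2 fold change 1.01, SE 0.12, adjusted p = 0.0035 by limma) and higher in beta than in delta cells (0.93, SE 0.12, adjusted p = 8.5e-04). Transdifferentiated and beta cells overlapped (0.08, SE 0.12, adjusted p = 0.60). Relative to mt-Cytb, the mRNA nearest to it on the plus strand, mt-Tp had 47.3 and 39.1 RPKM per 1000 in transdifferentiated, 56.8 and 55.9 in beta, and 26.9 and 25.5 in delta libraries. This ratio did not overlap between any of the populations.

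mt-Tc had 64.1 and 50.04 RPKM in transdifferentiated, 92.0 and 55.6 RPKM in beta, and 25.9 and 15.5 RPKM in delta libraries. It was higher in transdifferentiated than in delta cells (1.45, SE 0.31, adjusted p = 0.027 by limma) and higher in beta than in delta cells (1.79, SE 0.31, adjusted p = 0.0029). The call of mt-Tc in transdifferentiated against delta cells was lost without transdifferentiated replicate 1 (1.28) or 2 (1.63), without delta replicate 2 (1.10) or with no filter (1.45, adjusted p = 0.10). mt-Ta had 46.3 and 22.6 RPKM in transdifferentiated, 72.6 and 37.6 RPKM in beta, and 23.1 and 11.1 RPKM in delta libraries. It was higher in beta than in delta cells (1.64, SE 0.47, adjusted p = 0.022), a call lost without beta replicate 1 (1.18), without delta replicate 2 (1.15) or with no filter on low values (1.64, adjusted p = 0.083). With the pool as a block it was also called between transdifferentiated and beta cells (-0.67, adjusted p = 0.0023) and between transdifferentiated and delta cells (0.97, adjusted p = 0.0021). mt-Tl1 had 129.8 and 93.0 RPKM in transdifferentiated, 118 and 80.8 RPKM in beta, and 78.6 and 60.4 RPKM in delta libraries. With all libraries on the deposited scale it was not called. With the pool as a block it was called against delta cells, both in transdifferentiated cells (0.67, adjusted p = 0.0083) and in beta cells (0.50, adjusted p = 0.0064). In beta against delta cells it was also called after scaling (0.97) and when beta replicate 2 was left out (0.77).

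For 6 of the 8 tRNA genes with the highest mean level (mt-Tp, mt-Tl1, mt-Tc, mt-Ta, mt-Tm and mt-Tn) the male library was above the female one in each population. For mt-Tm and mt-Tn this rests on few reads. The share of all genes with that order was not counted, and each sex has a single library in each population. The 9 acinar markers, none of them at 0, also had a higher sum in the male library of each, with 1956 against 91.6 RPKM in transdifferentiated, 7320 against 279.98 RPKM in beta and 598 against 371 RPKM in delta libraries. Their part in the result was not tested. mt-Te had 37.0 and 45.2 RPKM in transdifferentiated, 25.5 and 26.9 RPKM in beta, and 23.1 and 24.96 RPKM in delta libraries. It lies next to mt-Nd6 on the same strand. mt-Te was higher in transdifferentiated than in beta cells (0.62, SE 0.13, adjusted p = 0.0076 by limma) and than in delta cells (0.75, SE 0.13, adjusted p = 0.013). After median-of-ratios scaling the difference from beta cells was 0.16 (adjusted p = 0.35). The call against delta cells was lost without transdifferentiated replicate 2 (0.60), delta replicate 1 (0.69) or delta replicate 2 (0.80).

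The other tRNA genes rest on few reads. mt-Tm (methionine) had 5 and 3 reads in transdifferentiated, 13 and 11 in beta, and 4 and 3 in delta libraries. It was lower in transdifferentiated than in beta cells (-0.67, SE 0.18, adjusted p = 0.018 by limma) and higher in beta than in delta cells (1.18, SE 0.18, adjusted p = 0.0016). Without transdifferentiated replicate 2 or beta replicate 1 it was not called against beta cells (-0.45, adjusted p = 0.092 and -0.60, adjusted p = 0.078), nor with no filter (adjusted p = 0.058). With the pool as a block it was called higher in transdifferentiated than in delta cells (0.51, adjusted p = 0.044). mt-Tq (glutamine) had 0 and 0 reads in transdifferentiated, 6 and 3 in beta, and 1 and 1 in delta libraries, and mt-Ti (isoleucine) had 2 and 2, 3 and 5, and 1 and 1. Most of these values are at or under 3 reads, and no fold change is read from them. mt-Tq reached 1 RPKM only in the beta libraries, where it is highest, and was tested for that reason, so its calls support no difference. Its call against delta cells was also lost after scaling (adjusted p = 0.096 by limma), with hormone and mt- genes left out of the total (adjusted p = 0.051), with no filter (adjusted p = 0.13) and without any transdifferentiated or delta library (adjusted p = 0.13 to 0.20). The call of mt-Ti in transdifferentiated against delta cells was lost with no filter (adjusted p = 0.12) and without any library of either population (adjusted p = 0.11 to 0.16). mt-Tn (asparagine) had 4 and 2 reads in transdifferentiated, 12 and 1 in beta, and 2 and 1 in delta libraries, and mt-Tl2, the other leucine tRNA, had 2.25 and 2.58 RPKM, 2.61 and 0.689 RPKM, and 4.15 and 1.80 RPKM in the same libraries. For mt-Tn the sign against beta cells depended on the beta library kept: 1.39 (adjusted p = 0.025) without beta replicate 1 and -0.99 (adjusted p = 0.051) without beta replicate 2.

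**Figure D4:**
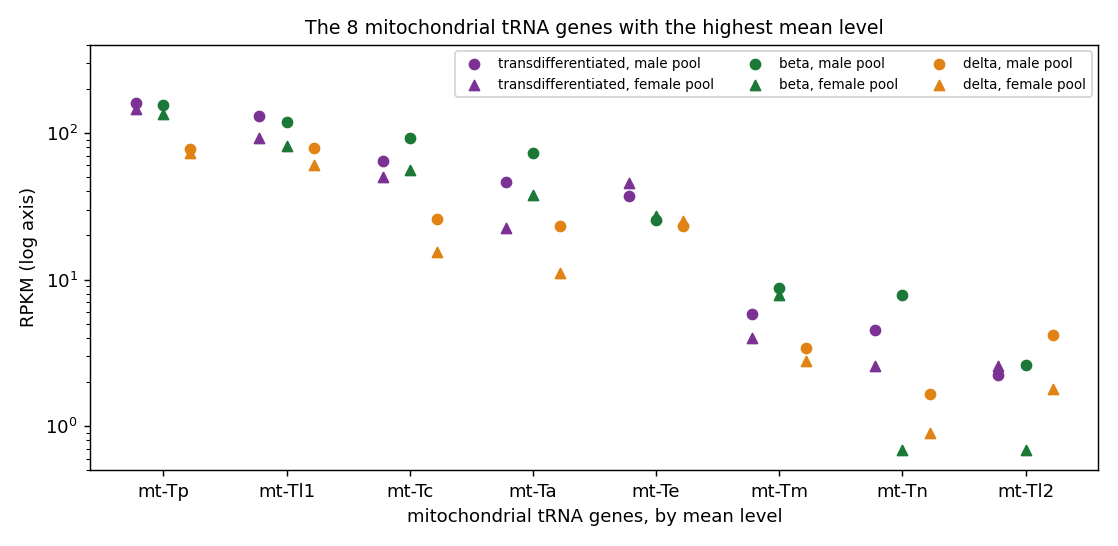
RPKM on a log axis of the 8 mitochondrial tRNA genes with the highest mean level, in each library. Delta libraries are lowest for mt-Tp, mt-Tl1, mt-Tc, mt-Te and, on few reads, mt-Tm. In each population the male library lies above the female one for all but mt-Te and mt-Tl2.

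Of the 11 tRNA genes tested, 1 rose and 2 fell in transdifferentiated against beta cells, where 42.5% of all genes rose and 8.46% fell. The 2 called lower were mt-Tm and mt-Tq, and mt-Tq had passed the filter only through beta cells. Against delta cells 4 rose in transdifferentiated cells (5.53% of all genes), and 7 did with the pool as a block. Among the 4 was mt-Ti, at 2 and 2 against 1 and 1 reads. It reached 1 RPKM only in transdifferentiated and beta libraries, so its calls against delta cells support no difference. The only gene called lower (7.2% of all genes) was mt-Tq, at 0 and 0 against 1 and 1 reads. The count of 5 calls against delta cells was 2 without transdifferentiated replicate 1 or delta replicate 1, and 1 without transdifferentiated replicate 2 or delta replicate 2. Between beta and delta cells 6 were called higher in beta cells and none lower, where 11.7% of all genes rose. Both mt-Tq and mt-Ti were among the 6. After scaling 8 rose, where 30.6% of all genes did. The median log2 fold change of the 11 genes was 0.08 in transdifferentiated against beta cells, 0.75 in transdifferentiated against delta cells and 0.93 in beta against delta cells.

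Respiratory subunits encoded in the nucleus were mostly lower or not called in transdifferentiated against beta cells. Of 84 such genes, 79 were tested, 3 rose and 44 fell (42.5% and 8.46% of all genes), with a median log2 fold change of -0.42, where the 7 mitochondrial protein genes had 0.36 and all genes 0.32. By complex, 1 rose and 21 fell of 38 in complex I, 2 fell of 4 in complex II, 6 fell of 9 in complex III, 1 rose and 8 fell of 13 in complex IV, and 1 rose and 7 fell of 15 in complex V. The 3 that rose, named after their values were seen, were the complex I subunit Ndufab1 (0.50), the complex IV subunit Cox7c (0.41) and Atp5g2, which encodes a ring subunit of ATP synthase (0.64). After scaling 70 fell and none rose, where 25.1% of all genes rose and 30.3% fell. The scaled medians were -0.89 for the nuclear and -0.11 for the mitochondrial protein genes, both below 0.

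Against delta cells, the nuclear subunits of transdifferentiated cells had a median of -0.05, and Cox6a2 was the only one called, higher by 3.63 (adjusted p = 0.0015 by limma), where 5.53% of all genes rose and 7.2% fell. It was named after its value was seen. This isoform of a complex IV subunit averaged 26.8 ± 9.39 RPKM in transdifferentiated, 78.6 ± 4.08 RPKM in beta and 1.29 ± 0.96 RPKM in delta libraries (SD, n = 2 each). In beta against delta cells 39 rose and 2 fell (11.7% and 46.3% of all genes), with a median of 0.36, where all genes had -0.36. After scaling 66 rose and none fell (30.6% and 27.7% of all genes), with a median of 0.82. The difference between mitochondrial and nuclear subunits was not tested.

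**Figure D5:**
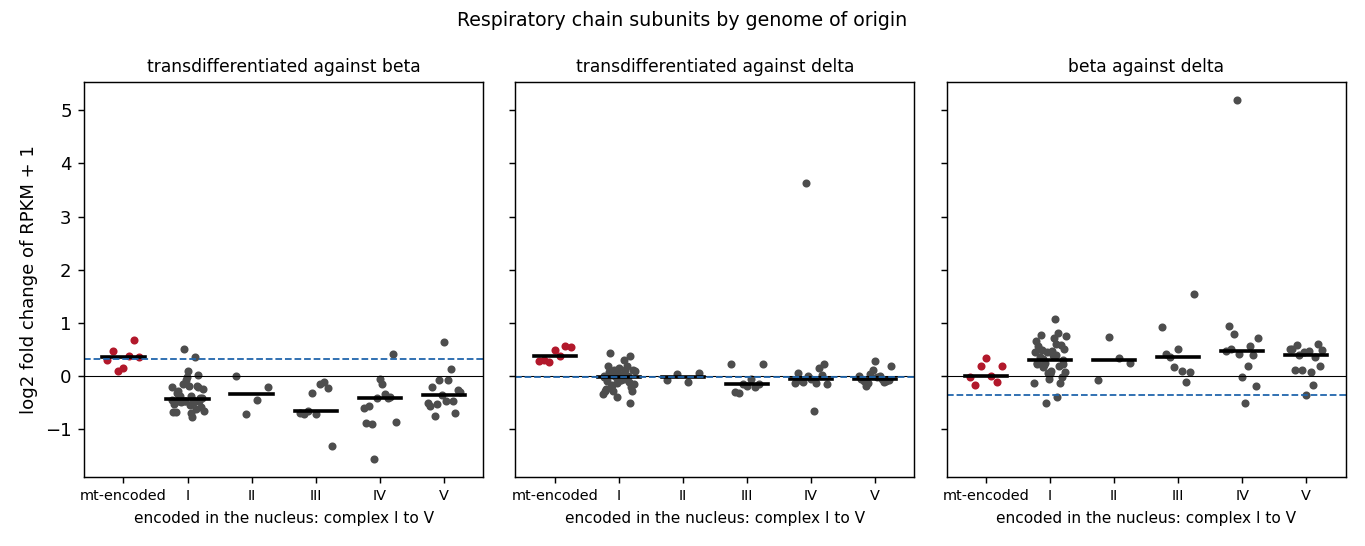
Log2 fold change of RPKM + 1 of respiratory chain genes encoded in the mitochondrion and of nuclear genes of complexes I to V. Each point is a gene, black lines are medians of each list and the dashed line is the median of all genes tested. In transdifferentiated against beta cells, on the deposited scale, the mitochondrial genes have a median of 0.36 and the nuclear ones of -0.42.

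The machinery list holds genes for copying mitochondrial DNA and for transcribing and processing its RNA, and nuclear regulators such as Gabpa, Esrra and Ppargc1a. On the deposited scale, its calls came in shares close to those of all genes in transdifferentiated against beta and beta against delta cells. Of 54 genes on the list, 50 were tested. In transdifferentiated against beta cells 21 rose and 3 fell (42.5% and 8.46% of all genes), with a median of 0.26 beside 0.32 for all genes. After scaling 10 rose and 14 fell (25.1% and 30.3% of all genes). Without transdifferentiated replicate 1 the calls numbered 14 in place of 24.

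Tfam, which packages mitochondrial DNA and starts its transcription, had 10.98 and 10.1 RPKM in transdifferentiated, 8.80 and 7.55 RPKM in beta, and 11.02 and 10.3 RPKM in delta libraries. It differed by 0.33 from beta cells (SE 0.12, adjusted p = 0.054 by limma), with a call in the fit that blocks on pool (adjusted p = 0.041) and in the fit without beta replicate 1 (0.43, adjusted p = 0.027). In beta against delta cells Tfam fell by 0.35 (SE 0.12, adjusted p = 0.043), but was at 0.09 after scaling, and the call was lost without either transdifferentiated (0.35 lower) or delta library (0.30 and 0.39 lower) or without beta replicate 2 (0.25 lower). It was also lost with hormone and mt- genes left out of the total (-0.26, adjusted p = 0.11 by limma) and with no filter (-0.35, adjusted p = 0.064). Polrmt, the mitochondrial RNA polymerase, had 4.80 and 6.42 RPKM in transdifferentiated, 4.93 and 6.61 RPKM in beta, and 6.42 and 6.43 RPKM in delta libraries, and was called in no comparison. Lrpprc, which stabilises mitochondrial mRNAs, had 14.9 and 15.3 RPKM in transdifferentiated, 11.8 and 17.1 RPKM in beta, and 13.04 and 12.5 RPKM in delta libraries. It was not called on the deposited scale with all libraries, but was called against beta cells when beta replicate 2 was left out (0.33) and, in beta against delta cells, when beta replicate 1 was left out (0.40) and after scaling (0.59). Ppargc1a, a coactivator of mitochondrial biogenesis, was too low to be tested, at 0.545 and 0.459 RPKM in transdifferentiated, 0.232 and 0.2002 RPKM in beta, and 0.903 and 1.01 RPKM in delta libraries.

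Among the tested machinery genes, the largest change in transdifferentiated against beta cells was in Top1mt, the mitochondrial topoisomerase, with 3.65 and 3.66 RPKM in transdifferentiated, 0.80 and 0.54 RPKM in beta, and 6.81 and 5.87 RPKM in delta libraries. It rose in transdifferentiated against beta cells (1.48, SE 0.14, adjusted p = 4.4e-04 by limma) and fell against delta cells (-0.65, SE 0.14, adjusted p = 0.026). The call against delta cells was the only one among the 50 genes in that comparison, where 5.53% of all genes rose and 7.2% fell. It was lost without transdifferentiated replicate 1 or 2 (-0.65 and -0.66) and without delta replicate 1 or 2 (-0.56 and -0.75). It was also lost with no filter on low values and with a pseudocount of 0.1 RPKM (-0.77). Pnpt1, a polynucleotide phosphorylase that degrades mitochondrial RNA, averaged 13.04 ± 0.72 RPKM in transdifferentiated, 4.98 ± 0.13 RPKM in beta and 11.1 ± 1.30 RPKM in delta libraries (1.23 against beta cells, adjusted p = 5.5e-04 by limma). Mterf3 and Mterf2, of the family of mitochondrial transcription termination factors, rose against beta cells by 1.19 and 1.13. Trnt1, which adds CCA to the ends of tRNAs, rose by 1.07, and Gabpa, a nuclear transcription factor, by 1.07. Primpol, a primase, rose by 0.82, and Trmt10c, a subunit of mitochondrial RNase P, by 0.80. Each of these 8 genes was called higher after scaling too. Top1mt and Primpol (0.54 and 0.85 RPKM in beta libraries) reached 1 RPKM only in transdifferentiated and delta libraries. They passed the filter through those libraries, so their calls against beta cells support no difference. The 3 that fell were Mrpl12, a ribosomal protein (-0.79), the nuclear receptor Esrra (-0.64) and the exonuclease Rexo2 (-0.33).

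Of the machinery genes, 4 rose and 19 fell in beta against delta cells (11.7% and 46.3% of all genes), with a median of -0.28, and 15 rose and 7 fell after scaling (30.6% and 27.7% of all genes). Top1mt was lower in beta cells by -2.14 (SE 0.14, adjusted p = 5.8e-05 by limma), followed by Mterf2 (-1.24), Gabpa (-1.23), Pnpt1 (-1.02), Trnt1 (-0.98), Mterf3 (-0.96) and Trmt10c (-0.76). Top1mt passed the filter only through transdifferentiated and delta libraries, so its call here supports no difference. Mrpl12 was higher by 0.68, with 0.54 to 1.13 over the 11 alternative fits, and its call was not kept in all of them. Without delta replicate 1 or 2 the calls numbered 10 and 13 in place of 23. Beta and delta cells share their libraries with the comparisons above, so these values are not independent of them.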

How the data were processed

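The authors deposited 1 RPKM value per gene symbol and library. STAR 2.5, featureCounts and edgeR 3.14.0 on GRCm38.p4 are named per the submitters' processing notes, without order or settings. Every one of the 127 mitochondrial values above 0, of 222, was a whole number of reads within 0.01 at the denominators worked out from low values (83.3% to 86.4% of all values under 50 reads were). Intervals were not computed, and counting error is largest for the tRNA genes. The 27 date-like symbols were dropped. Tests covered the 13022 genes that reached 1 RPKM in 2 of the 6 libraries, on log2(RPKM + 1), using R 4.3.3 and limma 3.58.1 (trend option, 1 fit of 3 groups, two-sided, Benjamini-Hochberg adjustment over all tested genes, threshold 0.05). These fold changes understate those of low genes. The script was tested on simulated data. p-values measure only the spread between pools, which here differ in sex. The main fit had no term for pool, so its p-values leave out the pairing of libraries of the same sex.

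Of the mitochondrial genes 20 passed the filter (7 protein, 2 rRNA, 11 tRNA). Filter and pseudocount are low beside the protein genes. Gene coordinates, lengths (44027 symbols) and sequences came from GENCODE M21 (GRCm38), and the sequences were compared with Biopython 1.88. Beta, delta and transdifferentiated libraries of the same sex come from the same islets per the series text, and their deviations from group means correlated at 0.47 (transdifferentiated and beta), 0.36 (transdifferentiated and delta) and 0.24 (beta and delta). That text at 1 point says alpha where title, labels and Cre driver say delta for the origin of the double-positive cells, and delta was followed. Alternatives were median-of-ratios scaling, a total without hormone and mt- genes, a pseudocount of 0.1 RPKM, no filter, the pool as a block, and each library left out. Named genes are the mitochondrial protein and rRNA genes, the 8 tRNA genes of highest mean, and from the machinery list Tfam, Polrmt, Lrpprc, Ppargc1a and up to 8 called genes of largest fold change per comparison. The members and lists were chosen with earlier results of these data known.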

Additional observations from a re-analysis of the deposited data

How the results depend on the processing

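Median-of-ratios scaling left 0 mitochondrial protein genes called in transdifferentiated against beta cells (4 as reported), 1 in transdifferentiated against delta cells (3) and 5 in beta against delta cells (1). Without a filter on low values, which brings many more genes into the fit, the counts were 0, 0 and 0, with 2 tRNA genes called in transdifferentiated against delta cells (5) and 0 machinery genes (1). With a pseudocount of 0.1 RPKM 0 machinery genes were called in that comparison. With the pool as a replicate block 8 tRNA genes were called there. It also put 1 rRNA gene, mt-Rnr1, past the threshold in transdifferentiated against beta cells (0 as reported), and moved the other counts of protein, tRNA, machinery and all genes by less than 1.5 times. Leaving out each library in turn gave 1 to 4 protein genes in transdifferentiated against beta, 0 to 4 in transdifferentiated against delta cells, 0 in beta against delta cells, 1 to 4 tRNA genes in transdifferentiated against delta cells, and 14 to 26, 0 to 1 and 10 to 24 machinery genes in the 3 comparisons. Over all genes the counts were 4120 to 7047 (6642 as reported), 502 to 2075 (1657) and 4893 to 7769 (7546), lowest without transdifferentiated replicate 1, delta replicate 2 and delta replicate 1.

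Log2 fold changes that changed sign in transdifferentiated against beta cells after scaling were -0.30 for mt-Tl1, -0.39 for mt-Nd1, -0.32 for mt-Nd2, -0.15 for mt-Tn, -0.18 for mt-Co1, -0.10 for mt-Nd4, -0.11 for mt-Nd6, -0.0047 for mt-Cytb, -0.39 for mt-Tp, -0.10 for Tfam and -0.37 for Lrpprc. In beta against delta cells they were 0.21 for mt-Rnr1, 0.46 for mt-Co1, 0.48 for mt-Nd4, 0.38 for mt-Nd5, 0.31 for mt-Cytb, 0.088 for Tfam and 0.27 for Polrmt. A total without hormone and mt- genes gave 0.077 for mt-Co1 and 0.10 for mt-Nd4 in beta against delta cells, and 0.034 for Tfam in transdifferentiated against delta cells.

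Values whose sign depended on a left-out library ranged as follows in transdifferentiated against beta cells: mt-Tl1 -0.10 to 0.44, mt-Nd1 -0.018 to 0.19, mt-Ti (1 to 5 reads, so not read as a fold change) -0.38 to 0.21, mt-Tn -0.99 to 1.39, mt-Tc -0.69 to 0.027, mt-Tl2 -0.082 to 1.01, mt-Tp -0.020 to 0.18, Polrmt -0.21 to 0.15 and Lrpprc -0.18 to 0.33. In transdifferentiated against delta cells they were mt-Tl2 -0.59 to 0.29, Tfam -0.068 to 0.042 and Polrmt -0.35 to 0.00041. In beta against delta cells they were mt-Rnr1 -0.66 to 0.13, mt-Rnr2 -0.48 to 0.73, mt-Tn -0.41 to 1.98, mt-Co1 -0.077 to 0.028, mt-Nd4 -0.017 to 0.0080, Polrmt -0.32 to 0.035 and Lrpprc -0.11 to 0.40. A lone library is assumed to vary like the others. The causes were not tested. Depth limits the tRNA genes, 17 of which had fewer than 10 reads in some library.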
